A study of Mus musculus with 6 samples.

Results

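The peroxisome proliferator-activated receptors and a group of their target genes were followed in the left ventricle of obese mice given Lira or placebo. The 10 genes were the receptors Ppara, Ppard and Pparg, their partner Rxra, and the target genes Ucp3, Acot1, Acot2, Angptl4, Plin2 and Plin5. The members were the probe sets to which the array's annotation gives 1 of these symbols and no other, and there were 19 of them among 45101 probe sets on the array, for 10 of 18193 genes. 2 genes had 3 probe sets, 5 had 2 and 3 had 1. A further 2 probe sets, 1 for Acot1 and Acot2 together and 1 for Ppard and a neighbouring transcript, name several genes and were not members.

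All animals were C57BL/6 males of 6 months that had eaten a fat-rich diet over 16 weeks, which makes this inbred strain obese. The agent was Lira in 3 mice and placebo in 3 mice, and the labels spell out neither the name Lira nor a dose, route or duration. Whole ventricle RNA gave 1 array per sample, cell types were not separated, and mice on ordinary food were not analysed here. The design text speaks of 10 mice, and only these 6 were analysed here. The extraction text in the labels names blood as the source, but all 7 cardiomyocyte markers were bright, with Myh6 between 31552 and 39205 signal units on every array, and of the 4 blood markers with a probe set Alas2, Hba-a1 and Ppbp did not exceed 63.9 on any array. The fourth, the platelet gene Pf4, read 330 to 438 on all 6 arrays. The haemoglobin gene Hbb-b1, also on the list of blood markers, shares its probe sets with another gene and was not read. Only probe sets that name 1 gene were read for Hba-a1 as well, so any that it shares with another gene is not covered. Signals are fluorescence in arbitrary linear units, scaled so that every array has the same trimmed mean. With 3 arrays per group, precision is limited throughout. In whole tissue, fewer cells of a type and less RNA per cell cannot be told apart.

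PPARs are nuclear receptors that bind fatty acids and their derivatives and sit on DNA as pairs with a retinoid X receptor such as the product of Rxra. In the heart they switch on genes for the uptake, storage and mitochondrial oxidation of fatty acids, and their target genes are commonly read as a gauge of fatty acid supply. Ppara and Ppard are the forms that heart muscle cells mainly use, and Pparg is best known from fat cells. Spare fatty acids are stored as triglyceride in lipid droplets, which proteins of the perilipin family coat.

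The question was whether these genes differed between Lira and placebo hearts. Of the 10 genes, 0 passed an adjusted p of 0.05 in limma with Benjamini-Hochberg adjustment over 12735 genes, where 7 genes passed (0.055%), and the adjusted p of the members lay between 0.82 and 0.99. At an unadjusted p under 0.05, 1 of the 10 was counted, Acot2, against 6.02% of all genes. The groups overlapped in each of the 10 genes when 1 probe set per gene was used, while they did not overlap in 11.4% of all genes. On the log2 scale 4 members were higher and 6 lower with Lira, with a median difference of -0.06, against a median of 0.01 over all genes, of which 51.9% were higher. Among the 19 member probe sets, fitted with all 45037, 0 passed an adjusted p of 0.05 (background 0.00222%) and 0 an unadjusted p of 0.05 (background 5.16%). These log2 values are log2(signal + 16), which understates the change of dim genes.

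**Figure D1:**
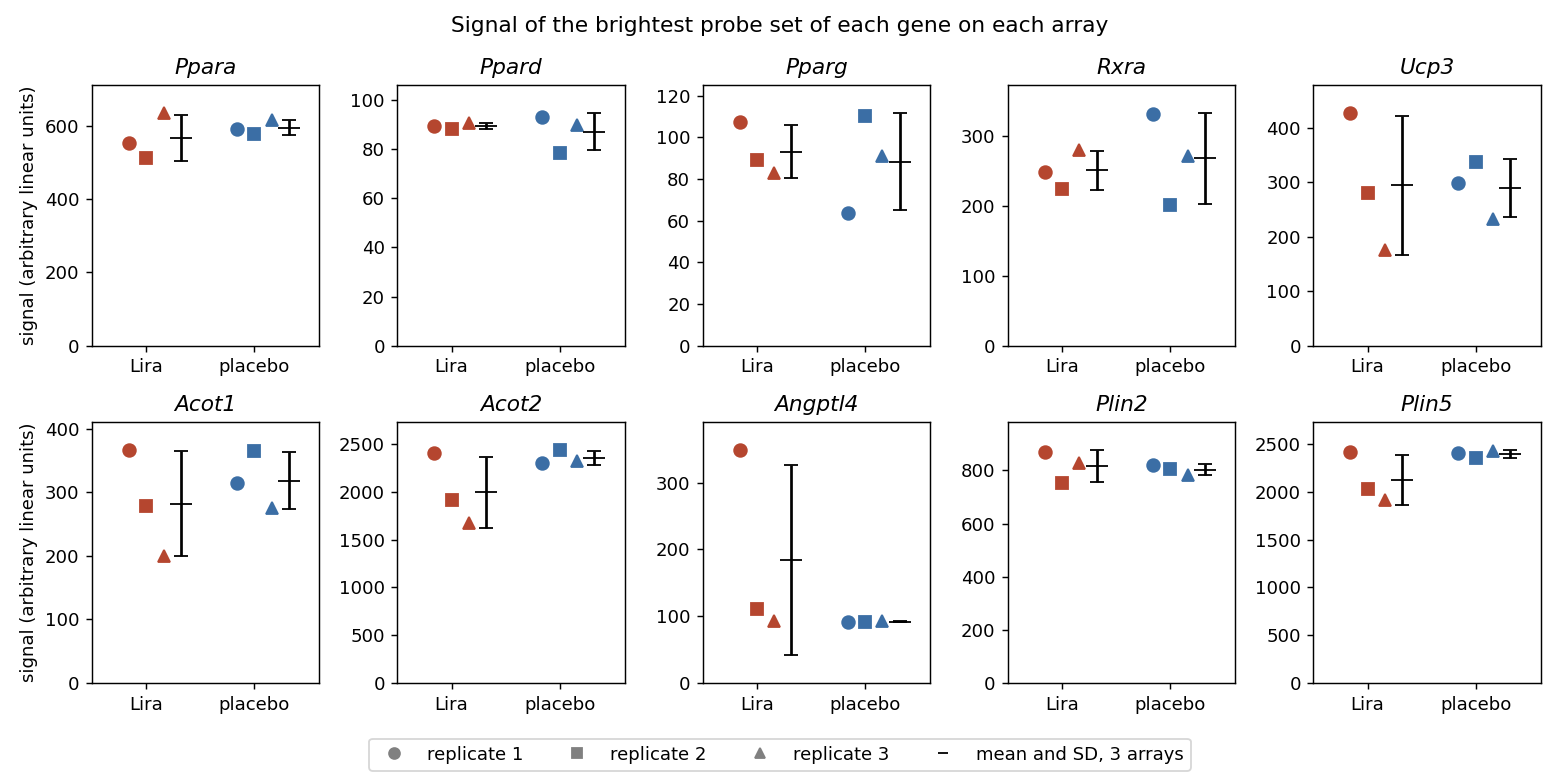
Signal in arbitrary linear units (vertical axes, from 0) of the brightest probe set of each of the 10 genes on the 3 Lira and the 3 placebo arrays. Symbols mark the replicates, and the black bar with whiskers is the mean and SD of 3 arrays. The groups overlap in every panel, and Angptl4 stands at 348 on Lira replicate 1 and between 90.6 and 111 on the other arrays.

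Ppara, the receptor that drives fatty acid oxidation in heart and liver, was measured by 3 probe sets. On the brightest, the signals were 553, 514 and 636 on the Lira arrays and 593, 578 and 617 on the placebo arrays. The means were 568 ± 62.6 with Lira and 596 ± 19.8 with placebo (SD, n = 3 each), a log2 difference of -0.07 ± 0.11 (SE). The SE and interval of each log2 difference come from limma, which draws a gene's variance toward that of genes of similar signal. Lira replicate 3 was the highest and Lira replicate 2 the lowest of all arrays, with the placebo arrays between them. The other probe sets averaged 569 ± 90.2 with Lira and 536 ± 23.9 with placebo, and 272 ± 69.1 with Lira and 262 ± 18.6 with placebo. Their log2 differences were 0.07 and 0.03, and Lira replicate 3 was the highest array on both.

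Ppard, which encodes the broadly expressed PPAR form also called PPAR beta, gave 89.7, 88.2 and 90.7 on the Lira arrays and 93.2, 78.7 and 90.0 on the placebo arrays. The log2 difference was 0.03 ± 0.17, and all 3 Lira arrays lay within the range of the placebo arrays. The other Ppard probe set was at 1.54 to 7.36 on all arrays, with a mean at the 4.13th percentile of all probe sets, so a level cannot be read from it. Pparg, the receptor known for the making of fat cells, gave 107, 89.2 and 83.0 on the Lira arrays and 63.7, 110.3 and 91.1 on the placebo arrays. Its log2 difference was 0.08 ± 0.20, with the placebo arrays spanning more than the Lira arrays.

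Rxra, the partner that PPARs need to bind DNA, was measured by 3 probe sets that did not run alike. The brightest gave 249, 223 and 279 on the Lira arrays and 331, 201 and 271 on the placebo arrays, a log2 difference of -0.07 ± 0.16. A dimmer one gave 65.3, 91.8 and 58.3 on the Lira arrays and 47.1, 47.5 and 42.2 on the placebo arrays. On that probe set every Lira array was above every placebo array, with a log2 difference of 0.49 ± 0.24 (95% confidence interval -0.03 to 1.02, adjusted p = 0.95 in limma over all 45037 probe sets). It was the only one of the 19 member probe sets whose groups did not overlap (5.26%), where 10.4% of all probe sets had groups that did not overlap. Across the 6 arrays the signals of these Rxra probe sets had r = -0.36, a value that was not tested. The third was dim, at 1.11 to 4.06. When all 3 Rxra probe sets were averaged, the difference was 0.17 instead of -0.07.

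**Figure D2:**
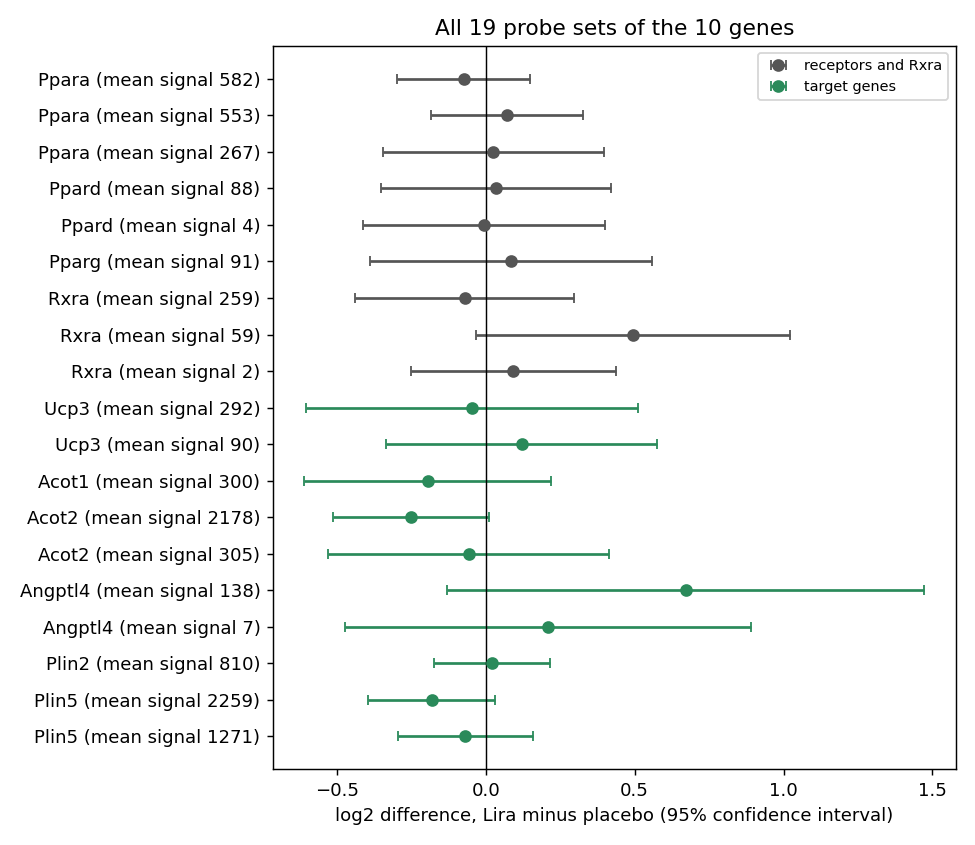
Log2 difference, Lira minus placebo (horizontal axis), of each of the 19 member probe sets with its 95% confidence interval, receptors in grey above target genes in green, and the mean signal over the 6 arrays beside each name. All 19 intervals include 0, and the dimmer Rxra and the brighter Angptl4 probe set lie farthest to the right.

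Ucp3, an uncoupling protein of the inner mitochondrial membrane that fatty acids induce in muscle, was measured by 2 probe sets. The brighter gave 428, 280.2 and 175 on the Lira arrays and 299, 337 and 232 on the placebo arrays. The Lira arrays held both the highest and the lowest value, and the log2 difference was -0.04 ± 0.24 with an interval of -0.56 to 0.47. Fitted without the variance trend, it had an SE of 0.31 and an interval of -0.77 to 0.68. The dimmer probe set gave 115, 99.1 and 71.9 on the Lira arrays and 86.0, 96.0 and 74.3 on the placebo arrays, with the same highest and lowest array and r = 0.92 between the probe sets. Without Lira replicate 1 the difference on the brighter one was -0.35, and without Lira replicate 3 it was 0.26.

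The promoters of the members were searched for the direct repeat that PPAR and RXR pairs recognise, AGGTCA, then 1 base of any kind, then AGGTCA again, because the target genes were correlated with each other across the arrays, as given further on. RefSeq promoters of the mouse build GRCm38.p6 were available for 9 of the 10 genes, 13 in all, and the 250 bases before each gene start were read on both strands. At most 2 mismatches to the repeat were found in 3 of the 13 windows, those of Ucp3, Plin2 and a second start of Rxra, against 3.24% of all 32851 promoter windows. The single element AGGTCA, which is contained in the repeat, was present in 6 of the 13 and in 14.0% of all. A match is a description of the letters in this window and not a site. The windows of the genes with a match among the targets are shown on the gene's strand with the matched stretch in capitals, first Ucp3 (chr7:100472741-100472990, + strand), where it starts 51 bases before the gene start, and then Plin2 (chr4:86670060-86670309, - strand), where it starts 225 bases before it and reads as the repeat on the opposite strand.
Ucp3: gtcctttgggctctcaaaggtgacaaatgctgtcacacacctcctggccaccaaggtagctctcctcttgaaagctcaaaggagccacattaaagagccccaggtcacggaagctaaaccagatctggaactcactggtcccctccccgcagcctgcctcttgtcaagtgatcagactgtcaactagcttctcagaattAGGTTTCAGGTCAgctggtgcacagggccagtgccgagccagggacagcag
Plin2: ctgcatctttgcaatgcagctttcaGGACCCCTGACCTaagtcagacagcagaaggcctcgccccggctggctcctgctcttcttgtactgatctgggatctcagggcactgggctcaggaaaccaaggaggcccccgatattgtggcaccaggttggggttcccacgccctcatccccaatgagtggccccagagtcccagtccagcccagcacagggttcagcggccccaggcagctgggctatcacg
The nearest stretches, read in the direction of the repeat, are set out below with the bases that match it in capitals and the spacer and mismatches in lower case, to show how the targets differ.
Ucp3: AGGTttcAGGTCA
Plin2: AGGTCAggGGTCc
Plin5: taGTCtgAGGTCA
Acot2: AGcaCAcAGcTCA
Acot1: ctGTCtgAGGcCA
Mismatches to the repeat numbered 2 for Ucp3, 2 for Plin2, 3 for Plin5, 3 for Acot2 and 4 for Acot1. The Plin5 stretch is from the nearer of its windows, and another Plin5 window had 4 mismatches and lacked AGGTCA. In the stretches shown, Ucp3 and Plin5 keep the second copy of the element whole, and Plin2 keeps the first.

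Acot1 and Acot2 encode acyl-CoA thioesterases, of the cytosol and of mitochondria, that release free fatty acids from their CoA esters and are induced by PPAR alpha agonists in rodents. They are neighbours on chromosome 12 with closely similar sequences, so that a probe set of one may also detect the other. Acot1 gave 367, 279 and 201 on the Lira arrays and 315, 365 and 275 on the placebo arrays. Its log2 difference was -0.19 ± 0.18, and the Lira arrays held the highest and the lowest value. Without Lira replicate 3 it was 0.02, and without Lira replicate 1 it was -0.39.

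The bright Acot2 probe set gave 2406, 1914 and 1678 on the Lira arrays and 2304, 2439.7 and 2327 on the placebo arrays. Lira replicates 2 and 3 were below every placebo array, and Lira replicate 1 was among them. The means were 1999 ± 371 with Lira and 2357 ± 72.8 with placebo, a log2 difference of -0.25 ± 0.12 with an interval of -0.50 to -0.0009 (adjusted p = 0.82, limma). The adjusted p was 0.53 without Lira replicate 1, where the difference was -0.39. The dimmer Acot2 probe set gave 399, 244 and 253 on the Lira arrays and 343, 371 and 219 on the placebo arrays, a log2 difference of -0.06 ± 0.21. The probe set shared by Acot1 and Acot2 followed the dimmer Acot2 one across the 6 arrays with r = 0.95 and the bright one with r = 0.34, and its log2 difference was 0.06.

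Angptl4 encodes a secreted protein that inhibits lipoprotein lipase and that fatty acids induce through PPARs in heart. Its brighter probe set gave 348, 111 and 91.9 on the Lira arrays and 91.4, 90.6 and 92.2 on the placebo arrays. Lira replicate 1 was far above all other arrays, while Lira replicate 3 lay within the placebo range. The means were 184 ± 143 with Lira and 91.4 ± 0.77 with placebo, a log2 difference of 0.67 ± 0.33 with an interval of -0.05 to 1.39 (adjusted p = 0.83, limma). Fitted without the variance trend, this difference had an SE of 0.43 and an interval of -0.35 to 1.69. Without Lira replicate 1 the difference was 0.13, and without Lira replicate 3 it was 1.0. The other Angptl4 probe set was dim, with 21.2, 6.65 and 0.579 on the Lira arrays and 0.399, 11.3 and 4.22 on the placebo arrays, and it too was highest on Lira replicate 1.

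Because Angptl4 is also made by fat cells and vessels, marker genes of these cells were read on the same arrays. Of 9 white fat cell markers 7 had a probe set of their own in the annotation used. Cfd and Plin1 had no entry there and were not read. Of the 7, 6 averaged below 50 signal units, Adipoq among them at 8.1 to 16.6. The summed signal of the 7 was 244 to 362 on the Lira arrays, with 362 on replicate 1, and 177 to 323 on the placebo arrays. Lipe, which heart muscle also expresses, gave 249.5 of the 362. Of the 7, Lipe, Lep (25.2) and Pck1 (18.0) were highest on Lira replicate 1, Adipoq (8.06) was lowest there, and Cidec, Retn and Car3 were highest on another array. Without Lipe the sum on Lira replicate 1 was 112, with 129 and 59.0 on the other Lira arrays and 61.6 to 166 on the placebo arrays. The brown fat marker Ucp1 was at 3.1 to 10.8 on all arrays. The 7 endothelial markers summed to 20398 to 22416 on the Lira arrays and 20286 to 21530 on the placebo arrays, and 20555 on Lira replicate 1. Fabp4 gave 17029 of that 20555, so the sum mostly follows Fabp4. Of the 7 markers, 1 was highest and 3 were lowest on Lira replicate 1. Gpihbp1 was lower on all Lira than on all placebo arrays, with a log2 difference of -0.32 (adjusted p = 0.62, limma). The smooth muscle markers summed to 11476.5 on Lira replicate 1, the highest of the 6 arrays, with 10073 and 10162 on the other Lira arrays and 8683 to 9729 on the placebo arrays. Acta2 gave 3377 of that sum, and without it Lira replicate 1 had 8100, with 8583 and 8555 on the other Lira arrays and 7609 to 8607 on the placebo arrays. Macrophage markers summed to 3519 on Lira replicate 1, with 3072 and 3156 on the other Lira arrays and 2836 to 2956 on the placebo arrays, and 5 of the 7 were highest on Lira replicate 1. Fibroblast markers summed to 13108 on Lira replicate 1, with 10739 and 11335 on the other Lira arrays and 10339 to 11246 on the placebo arrays. Dcn gave 8706 of that sum, and without it Lira replicate 1 had 4402, with 3436 and 3416 on the other Lira arrays and 3472 to 4568 on the placebo arrays. Of the same list Col3a1 and Postn were lower on all Lira than on all placebo arrays, with log2 differences of -0.51 and -0.36 (adjusted p = 0.50 and 0.66, limma). Without overlap, 1 of the 6 fibroblast markers was higher and 2 were lower, and 1 of the 7 endothelial markers was lower. Over all genes 11.4% had groups without overlap. The part of these cells in the Angptl4 value was not tested.

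Plin2 coats lipid droplets in most tissues and had the smallest log2 difference of the 10 genes. It gave 869, 753 and 829 on the Lira arrays and 822, 806 and 782 on the placebo arrays. The Lira arrays lay on both sides of the placebo arrays, and the log2 difference was 0.02 ± 0.10 with an interval of -0.19 to 0.23. Plin5 coats droplets in tissues that burn fat and holds them against mitochondria. Its brighter probe set gave 2417, 2033 and 1913 on the Lira arrays and 2402, 2354 and 2433 on the placebo arrays. As for Acot2, Lira replicates 2 and 3 were below every placebo array and Lira replicate 1 was not. The means were 2121 ± 263 with Lira and 2396 ± 39.9 with placebo, a log2 difference of -0.18 ± 0.10 (adjusted p = 0.84, limma). Without Lira replicate 1 it was -0.28. The other Plin5 probe set gave 1369, 1232 and 1120.1 on the Lira arrays and 1346, 1397 and 1161 on the placebo arrays, a difference of -0.07 ± 0.10.

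On the brightest probe sets, the SD of the target genes over 3 arrays on the log2 scale was larger with Lira in 6 of 6 target genes and in 7 of the 10 members, against 52.5% of all genes. Its median over the 6 targets was 0.34 with Lira and 0.04 with placebo, where the medians over all genes were 0.18 with Lira and 0.17 with placebo. The SD was 0.17 with Lira and 0.02 with placebo for Plin5, 0.26 with Lira and 0.04 with placebo for Acot2, and 0.61 with Lira and 0.26 with placebo for Ucp3. The other probe sets of the targets did not show the same gap for Plin5, with 0.143 with Lira and 0.140 with placebo, nor for Acot2, with 0.376 with Lira and 0.387 with placebo. For the other probe set of Ucp3 the SD was 0.294 with Lira and 0.156 with placebo, and for the dim one of Angptl4 0.589 with Lira and 0.368 with placebo. Ppard, Pparg and Rxra had the larger SD with placebo. No test of this difference in spread was run, and an SD over 3 arrays is imprecise.

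**Figure D3:**
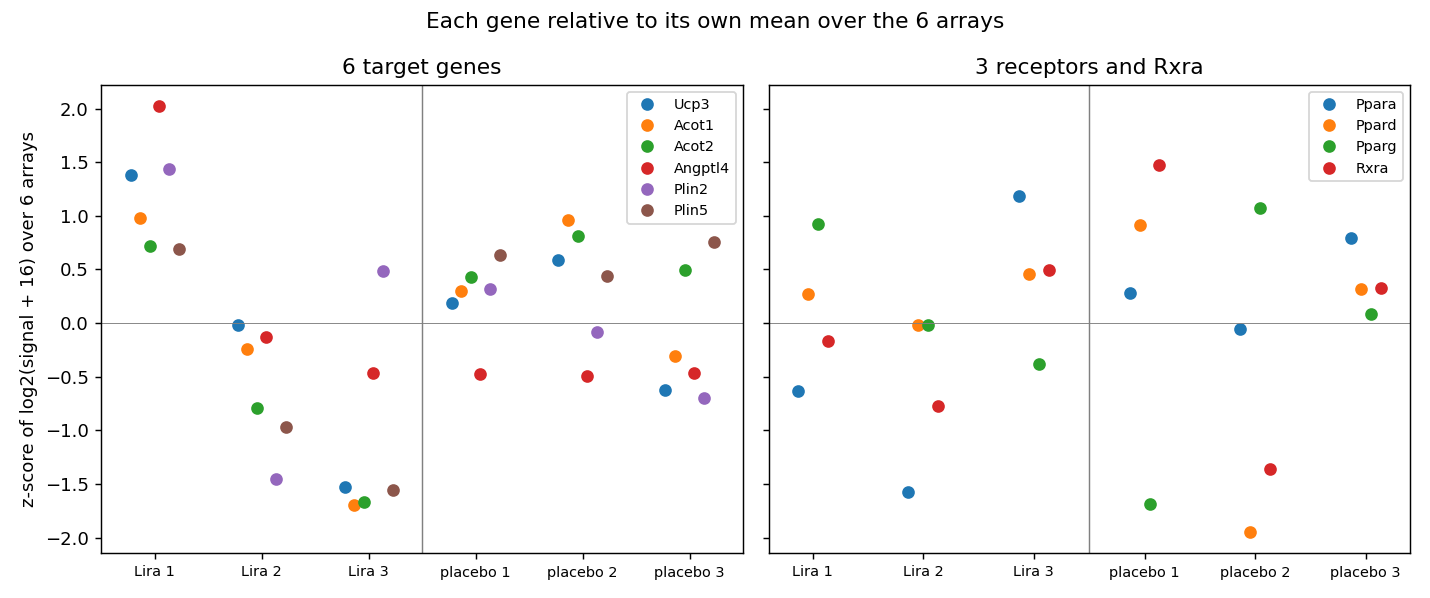
Log2(signal + 16) of each gene as a z-score over the 6 arrays (vertical axis), for the 6 target genes on the left and the 3 receptors and Rxra on the right, with the 3 Lira arrays left of the 3 placebo arrays. All 6 target genes are above their own mean on Lira replicate 1, and 5 of them are below it on Lira replicate 3, with Plin2 above it.

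The same arrays were high and low in most of the target genes. Lira replicate 1 was the highest array in 4 of the 6 targets, Ucp3, Acot1, Angptl4 and Plin2, and Lira replicate 3 was the lowest in 4, Ucp3, Acot1, Acot2 and Plin5. Over all genes Lira replicate 1 was the highest array in 15.3% and Lira replicate 3 the lowest in 19.2%. The mean z-score of the 6 targets was 1.20 on Lira replicate 1, -0.60 on replicate 2 and -1.07 on replicate 3, and between -0.14 and 0.37 on the placebo arrays. The median signal of the array was 35.3 on Lira replicate 1 and 28.6 on Lira replicate 3, with 39.6 on Lira replicate 2 and 31.9 to 36.4 on the placebo arrays. With each array centred on its median, the mean z-score was 1.04, -1.07 and -0.45 on Lira replicates 1, 2 and 3 and -0.24 to 0.54 on the placebo arrays, so that Lira replicate 1 was still the highest and the lowest was Lira replicate 2 in place of replicate 3.

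Correlations across the 6 arrays were computed for the 45 pairs of the 10 genes, with 1 probe set per gene. 0 pairs passed an adjusted p of 0.05 in the exact two-sided permutation test over 720 pairings, and 5 pairs had an unadjusted exact p under 0.05. The smallest adjusted value was 0.063, which is set by the smallest p that 6 arrays can give, 0.0014. All 15 pairs of target genes were positive, with a median r of 0.61 and a range of 0.22 to 0.97. After median centring all 15 were above 0, with a median of 0.44 and a lowest value of 0.03, that of Ucp3 and Plin2. The 24 pairs of a receptor or Rxra with a target had a median r of -0.05, with 12 above 0, and 0.13 with 15 above 0 after median centring. Pooled over both groups these values mix the treatment with the spread between mice. For deviations from the group means the medians were 0.82 for target pairs and -0.04 for receptor and target pairs. Over the 3 placebo arrays alone, target pairs had either sign. There r was 0.98 for Ucp3 and Acot1 and 0.79 for Acot1 and Acot2. It was -0.85 for Acot2 and Plin5, -0.99 for Acot1 and Plin5 and -0.95 for Ucp3 and Plin5. Over the 3 Lira arrays alone the same pairs had r of 0.9996, 0.98, 0.99, 0.95 and 0.96. An r over 3 arrays is imprecise.

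The pair with the strongest exact test was Ucp3 and Acot1, with r = 0.95 (exact p = 0.0014, adjusted p = 0.063) and Spearman's rho of 1 (exact p = 0.0028). Without the 2 arrays farthest from the median, Lira replicates 1 and 3, r was 0.89. Acot2 and Plin5 had the highest r, 0.97 (exact p = 0.028, adjusted p = 0.31), with rho = 0.60 (exact p = 0.24). That relation rested on Lira replicates 2 and 3, without which r was -0.63. Acot1 and Acot2, whose probes may detect each other's transcripts, had r = 0.89 (exact p = 0.011, adjusted p = 0.17) and rho = 0.77 (exact p = 0.10), and 0.62 without Lira replicates 1 and 3.

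Among the receptors, Ppard and Rxra ran together with r = 0.86 (exact p = 0.011, adjusted p = 0.17) and rho of 1 (exact p = 0.0028), and with r = 0.97 without placebo replicates 1 and 2. With the probe sets of each gene averaged, r was 0.03, and the Rxra probe sets do not run alike. Pparg ran against Rxra with r = -0.85 (exact p = 0.038, adjusted p = 0.34; rho = -0.83, exact p = 0.058) and against Ppard with r = -0.71 (exact p = 0.14, adjusted p = 0.77; rho = -0.83, exact p = 0.058). Without placebo replicates 1 and 2 these values were -0.29 and -0.16, so both rested on those arrays. They were -0.47 and -0.29 after median centring, and -0.27 and -0.16 with probe sets averaged. Ppara ran against Ucp3 with r = -0.63 (exact p = 0.18, adjusted p = 0.82; rho = -0.66, exact p = 0.17), the third lowest pair, and with r = -0.999 without Lira replicates 2 and 3. After median centring it was -0.40. On Lira replicate 1, where 4 targets were highest, Ppara on its brightest probe set was below and Pparg above its own mean over the 6 arrays. The dimmest Ppara probe set read 285 on that array, above its own mean of 267.

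**Figure D4:**
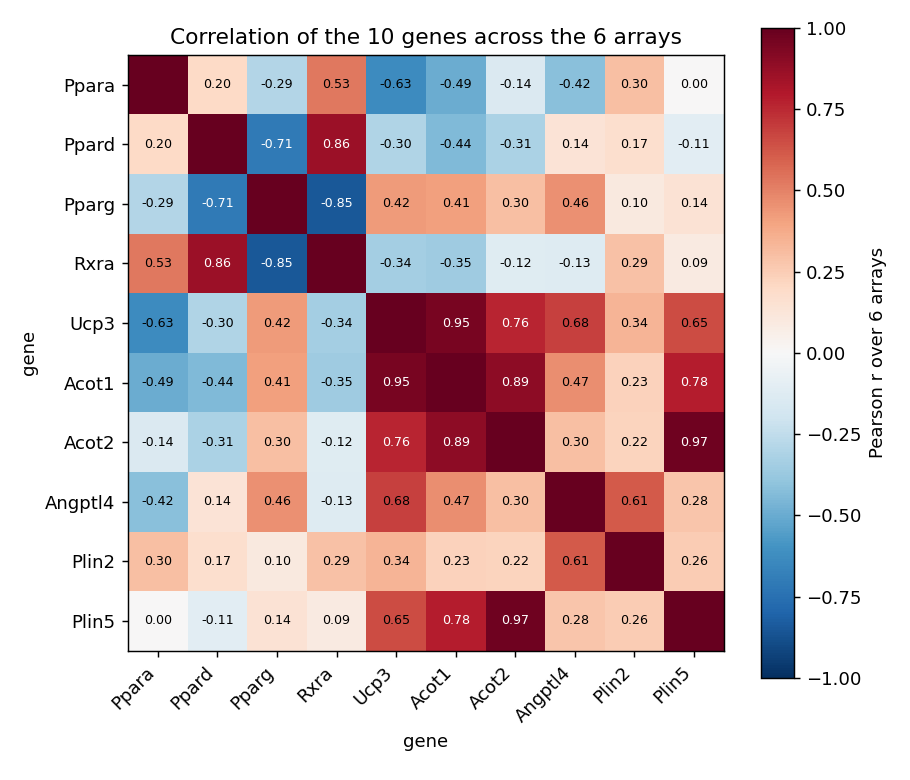
Pearson r across the 6 arrays for each pair of the 10 genes (both axes), from log2(signal + 16) of the brightest probe set. The 15 pairs among the 6 target genes are all above 0, between 0.22 and 0.97, and pairs of a receptor with a target lie between -0.63 and 0.46.

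Genes with the array pattern most like the mean z-score of the 6 targets were sought among 7940 other genes, those that averaged 100 signal units or more. The 5 highest were Fas, the death receptor, with r = 0.99, Oxa1l, a mitochondrial protein insertase, with 0.99, the cytokine receptor Crlf2 with 0.99, the polarity protein Mpp5 with 0.98 and the histone deacetylase Hdac1 with 0.97. In all, 41 genes (0.516%) had r above 0.9, and these values are a description over 6 arrays. Fas gave 552, 328 and 305 on the Lira arrays and 429.5, 418 and 398 on the placebo arrays. Pdk4, the kinase that shuts off pyruvate oxidation when fatty acids are plentiful and a well known PPAR target, was ninth with r = 0.96, and it is named here because of that value. It gave 8923, 5159 and 3421 on the Lira arrays and 7149, 7266 and 5197 on the placebo arrays, a log2 difference of -0.26 ± 0.25.

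The genes around the members were read in 4 lists. Of 30 other PPAR target genes of heart, 22 were tested, 12 were higher and 10 lower with Lira, and 0 passed either threshold, with a median log2 difference of 0.01. With the smallest p were Vldlr, the VLDL receptor, at -0.17 ± 0.08, Cpt1a, which admits fatty acids to mitochondria, at -0.22 ± 0.13, the carnitine carrier Slc25a20 at -0.14 ± 0.09 and the fatty acid transporter Cd36 at 0.19 ± 0.13. Vldlr gave 4683, 4806 and 4885 on the Lira arrays and 5274, 5234 and 5656 on the placebo arrays, without overlap. Groups did not overlap in 3 of the 22, all lower with Lira, against 11.4% of all genes in either direction. Across the 6 arrays 21 of the 22 had an r above 0 with the mean z-score of the 6 target genes, as did 49.2% of all genes. The median r of the 22 was 0.36, and some values were near 0, such as 0.01 for Hadhb and 0.06 for Acadvl. No test of this count was run. Pdk4, Acadl, Mlycd and Ehhadh, all enzymes of fuel choice or fatty acid oxidation, had the highest values, 0.96, 0.88, 0.78 and 0.76.

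Of 15 partners and coregulators 13 were tested, 6 higher and 7 lower, with 0 at either threshold and a median of -0.03. Rxrg, another retinoid X receptor, measured 436 ± 43.5 with Lira and 519 ± 62.9 with placebo, and the lipin Lpin1, an enzyme and coactivator, measured 1506 ± 93.7 with Lira and 1681 ± 28.5 with placebo. The oxysterol receptor Nr1h3 measured 156 ± 20.9 with Lira and 124 ± 6.49 with placebo, and the corepressor Nrip1 measured 305 ± 20.8 with Lira and 270.4 ± 53.2 with placebo. The coactivator Ppargc1a differed by -0.05 ± 0.16.

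Of 20 lipid droplet and lipolysis genes 18 were tested, 7 higher and 11 lower, with a median of -0.04 and 0 past the adjusted threshold. At an unadjusted p under 0.05 there was 1 in each direction (background 2.91% higher and 3.12% lower). Lipe, the hormone-sensitive lipase, gave 249.5, 166 and 185 on the Lira arrays and 116, 157 and 126 on the placebo arrays, all Lira arrays being above all placebo arrays, with a log2 difference of 0.53 ± 0.17 (adjusted p = 0.64, limma). Lipe is also on the list of white fat cell markers, whose sums are given above and whose part in its value was not tested. Agpat2, an acyltransferase of triglyceride synthesis, gave 598, 649.8 and 614 on the Lira arrays and 793, 761 and 674 on the placebo arrays, again without overlap, with a difference of -0.25 ± 0.10 (adjusted p = 0.77, limma). Of the 18, 1 was higher and 1 lower without overlap, against 11.4% of all genes without overlap in either direction. Gpam, which starts glycerolipid synthesis, differed by -0.21 ± 0.10, and Fitm2, which helps droplets to form, by 0.17 ± 0.09. The lipase Pnpla2 and the droplet coat Plin4 differed by -0.04 ± 0.09 and 0.03 ± 0.09. Of 12 other acyl-CoA thioesterases 8 were tested, 2 higher and 6 lower, with 0 at either threshold and a median of -0.06. Those with the smallest p were Them4 at -0.27 ± 0.14, Acot11 at -0.21 ± 0.13, Acot7 at 0.13 ± 0.09 and Acot9 at -0.08 ± 0.10.

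**Figure D5:**
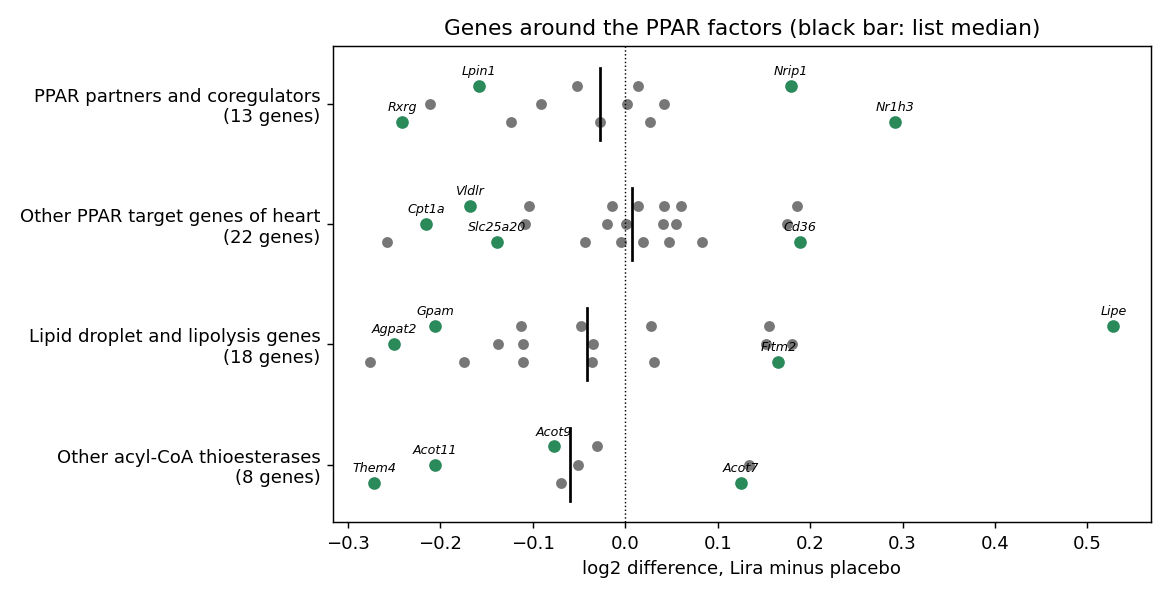
Log2 difference, Lira minus placebo (horizontal axis), of each tested gene of 4 lists (rows), with the 4 genes of smallest p named in green and the list median as a black bar. The medians lie between -0.06 and 0.01, and Lipe, at 0.53, is farthest from 0.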

How the data were processed

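Ventricle RNA of 6 mice was hybridised to Affymetrix mouse arrays, 1 per mouse, and grouped by the agent in the labels. The authors deposited 1 linear intensity for each probe set. The submitters' processing notes name Affymetrix Expression Console. Its algorithm is not stated in them or in the labels. Each array was scaled to one trimmed mean, so only changes relative to other genes can be seen, and detection calls were not used. 64 control probe sets were left out. Of the other probe sets 34945 had 1 gene, 932 several and 9160 no row in the name table used; symbols were updated to GRCm38.p6, where 99.42% matched. Each of 18193 genes was represented by its brightest probe set over all arrays. The 30% of genes with the lowest mean signal were left out, which kept all 10 members and 12735 genes with a mean of at least 23.7. Log2(signal + 16) was fitted by lmFit and eBayes of limma 3.58.1 (R 4.3.3), with the variance trend on, two-sided, and adjusted by Benjamini-Hochberg. All 45037 probe sets were fitted again without the filter, for the values of each member probe set. In 10 simulated data sets of this comparison over 12735 genes, 63.7% of the 2-fold changes were called, as were 27.5% of the 1.5-fold changes, and 5.7% of calls were false. Each set had 200 changed genes, independent errors and the same spread in both groups, so these shares need not hold for the members.

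The members and lists were chosen with earlier results of these data known. Of each list the 4 genes with the smallest p are named, with the 5 genes most like the targets. Pdk4, Acadl, Mlycd, Ehhadh, Ppargc1a, Pnpla2 and Plin4 were added after their values were seen. Of the list members without a test, 6 were below the filter, 3 share their probe sets with another gene and 7 were not analysed here. The design text says that each heart came from 1 mouse, and each array is counted as 1 replicate.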

Additional observations from a re-analysis of the deposited data

How the results depend on the processing

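Arrays carry no read depth, and 3 arrays per group limit every value. 0 members passed an adjusted p of 0.05 under any alternative tried. The 7 genes past that threshold became 1 without the filter on dim genes, 0 with probe sets averaged (684 at an unadjusted limma p under 0.05) and 0 without the variance trend (683 by the same count). Leaving out 1 array gave 1 to 9, namely 1 with Lira replicate 3 left out, 2 with placebo replicate 2, 3 with Lira replicate 2 and 4 with Lira replicate 1. The 1 member at an unadjusted p under 0.05, Acot2, became 0 with quantile normalization, a pseudocount of 1, no filter, the lowest 50% left out, the mean of probe sets or no variance trend. It became 2 with the replicate block, Acot2 and Angptl4, where 760 of 12735 genes were at that p, and 0 to 3 when 1 array was left out. Without Lira replicate 1 the 3 were Acot1, Acot2 and Plin5, all lower, where 688 of 12735 genes were counted. The 1 member was Angptl4, higher, with median centring, with array weights, and when Lira replicate 2 or 3 was left out. In these settings 503, 897, 864 and 779 of 12735 genes were counted. The cause was not tested. Same-numbered arrays did not deviate together (r = -0.03, 0.08 and -0.09), and 1 of 3 Lira arrays correlated best with its own number, so the replicate number was not taken to pair the mice, and under the block 7 genes passed.

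Signs that turned were all on differences that did not pass. With the mean of probe sets the differences were 0.0077 for Ppara, 0.17 for Rxra and 0.038 for Ucp3, and with array weights 0.0029 for Ucp3. The dim Ppard probe set gave 0.027 with quantile normalization, 0.0034 with median centring and 0.081 with a pseudocount of 1. Leaving out 1 array gave -0.028 to 0.075 for Ppard, -0.10 to 0.24 for Pparg, -0.25 to 0.087 for Rxra, -0.35 to 0.26 for Ucp3, -0.39 to 0.016 for Acot1 and -0.023 to 0.079 for Plin2. For further probe sets it gave -0.048 to 0.17 and -0.13 to 0.23 for Ppara, -0.092 to 0.11 for Ppard, -0.0063 to 0.28 for Ucp3, -0.28 to 0.081 for Acot2, -0.10 to 0.48 for Angptl4 and -0.15 to 0.0020 for Plin5. Acot2 (-0.39 to -0.13), Plin5 (-0.28 to -0.11) and Angptl4 (0.13 to 1.0) kept their sign on the brightest probe set. The r of Acot2 and Plin5 became -0.63 without the 2 arrays farthest from the median of Acot2. The median of the lipid droplet genes was -0.080 to -2.8e-05 when 1 array was left out. That of the partners was -0.099 to 0.031 and that of the other PPAR targets -0.049 to 0.063, both crossing 0, and that of the thioesterases -0.10 to -0.042. With quantile normalization the other PPAR targets had -0.0025. The median r of the target pairs was 0.44 with median centring. That of receptor and target pairs was 0.13 with median centring, -0.14 with quantile normalization and -0.27 with probe sets averaged. The larger SD with Lira, in 6 of 6 targets, was found in 3 of 4 of their other probe sets, a comparison chosen after seeing the data, as were the marker sums without 1 marker.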
